A study of Mus musculus with 15 samples.

Results

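The 47 genes described here encode proteins of nucleolar ribosome biogenesis. They were taken from a list of gene names that was chosen with earlier results of these data known. Counts over them are therefore a description and not independent support for a change of the whole pathway. All 47 were found among the 32372 genes of the count matrix, and all 47 were among the 14260 genes that passed the filter on low counts. By role they comprised 3 subunits of RNA polymerase I, 4 proteins of box C/D small nucleolar ribonucleoproteins (snoRNPs), 4 of H/ACA snoRNPs, 5 nucleolar chaperones and helicases, 15 factors of small subunit assembly and 16 of large subunit assembly.

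Cells enriched with CD45 beads from cortex and hippocampus were profiled by single-cell RNA sequencing from 15 male hTfR KI mice on C57BL/6J, aged 3.5 months, in which part of the human transferrin receptor replaces the mouse sequence. The single dose of 10 mg/kg was of ATV:4D9, an antibody against the microglial receptor TREM2 on an Fc that binds the transferrin receptor (the antibody transport vehicle, ATV), or of the control ATV:RSV, which has the same vehicle. Sampling was at day 1, 7, 14 or 28 for ATV:4D9 and at day 1 for ATV:RSV, which makes 5 groups of 3 mice, spread over 3 batches that each hold 1 mouse per group. No control was therefore taken on the later days, all comparisons with ATV:RSV share the same 3 mice, and no mice without the TfR knock-in were included. Counts of unique molecular identifiers (UMIs) from 102043 cells were summed per mouse, since cells of 1 mouse are not replicates. Levels are given as CPM, the UMIs of a gene scaled to a common total. For single genes in whole mice, the UMI total of each mouse was first adjusted by its TMM factor, as in the fit. For summed marker lists and for clusters, the UMI totals were left unadjusted. These kinds of CPM are therefore not on the same scale.

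Ribosomes are built in the nucleolus. RNA polymerase I transcribes the long precursor of ribosomal RNA, box C/D snoRNPs methylate it and H/ACA snoRNPs convert uridines in it to pseudouridine, and successive assembly factors fold and cut it while ribosomal proteins are added to the small and the large subunit. The demand for these factors is known to be high in growing and dividing cells and low in resting ones, and MYC and mTOR are known regulators of their genes.

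Markers of microglia were present throughout, as 99.6% to 100% of the cells of each day 1 mouse, of either antibody, had UMIs of at least 3 of 8 microglia markers. Several properties of the libraries moved with the day 1 ATV:4D9 group. Its 3 mice had a median of 8202 to 8996 UMIs per cell, against 4975 to 5750 in ATV:RSV mice, and a median mitochondrial percent of 3.96 to 4.5, against 3.11 to 3.38. Cells with a UMI of the cycling genes Mki67 or Top2a made up 19.6% to 27.4%, against 0.397% to 0.684%. Cells with 3 or more markers of border-associated macrophages made up 0.843% to 1.23%, against 0.231% to 0.385%, while the summed level of the 7 markers was 18 to 26 CPM against 17.2 to 20.6 CPM. Of the 14 marker lists of other cell types, 1 was higher in all 3 day 1 mice than in all ATV:RSV mice by its summed level, that of monocytes, at 13.9 to 18 CPM against 4.51 to 11.5 CPM. Cells with 3 or more of its markers made up at most 0.0167% of a day 1 mouse and 0.0142% of an ATV:RSV mouse. Markers of 4 types were lower without overlap, with oligodendrocytes at 29.2 to 32.2 CPM against 48.1 to 65.2 CPM, endothelial cells at 9.01 to 14.1 CPM against 19.7 to 26.4 CPM, neurons at 4.47 to 6.09 CPM against 8.58 to 11.3 CPM and B cells at 205 to 223 CPM against 229 to 278 CPM, and the other 9 lists overlapped. Cells with 3 or more B cell markers made up at most 0.0562% of a day 1 mouse and 0.0427% of an ATV:RSV mouse. For oligodendrocytes these shares were at most 0.253% and 0.293%, for neurons 0.0281% and 0.0308%, and for endothelial cells 0.0167% and 0.0294%. Which cells held the UMIs of these lists was not tested. The 8 microglia markers together were at 13153 to 14641 CPM at day 1 of ATV:4D9 and at 19761 to 21075 CPM with ATV:RSV.

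One day after ATV:4D9, 46 of the 47 genes were higher than with ATV:RSV and none was lower (limma-voom, adjusted p under 0.05). Of all 14260 genes tested, 34.7% were called higher and 34.6% lower in the same comparison. The median log2 fold change was 1.14 over the 47 genes, a 2.21-fold increase, and -0.05 over all genes tested. In 28 genes the increase was more than 2-fold. Every one of the 46 genes separated the groups, with all 3 ATV:4D9 mice above all 3 ATV:RSV mice, as did 35.7% of all genes tested. Within the batches, 47, 47 and 46 of the 47 genes were higher in the day 1 ATV:4D9 mouse than in the ATV:RSV mouse of the same batch, with medians of 1.05, 1.19 and 1.15 on the log2 scale.

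Taken as a share of all UMIs, the 47 genes held 0.191%, 0.196% and 0.194% in the ATV:RSV mice and 0.366%, 0.4% and 0.376% in the day 1 ATV:4D9 mice. The later ATV:4D9 mice lay between 0.191% and 0.211%, next to the control values. The count of these UMIs per cell rose further than the share, from a mean of 12 ± 0.702 to 35.5 ± 1.93 (SD, n = 3 mice each, 2.96-fold), since the day 1 cells also held more UMIs of all genes.

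**Figure D1:**
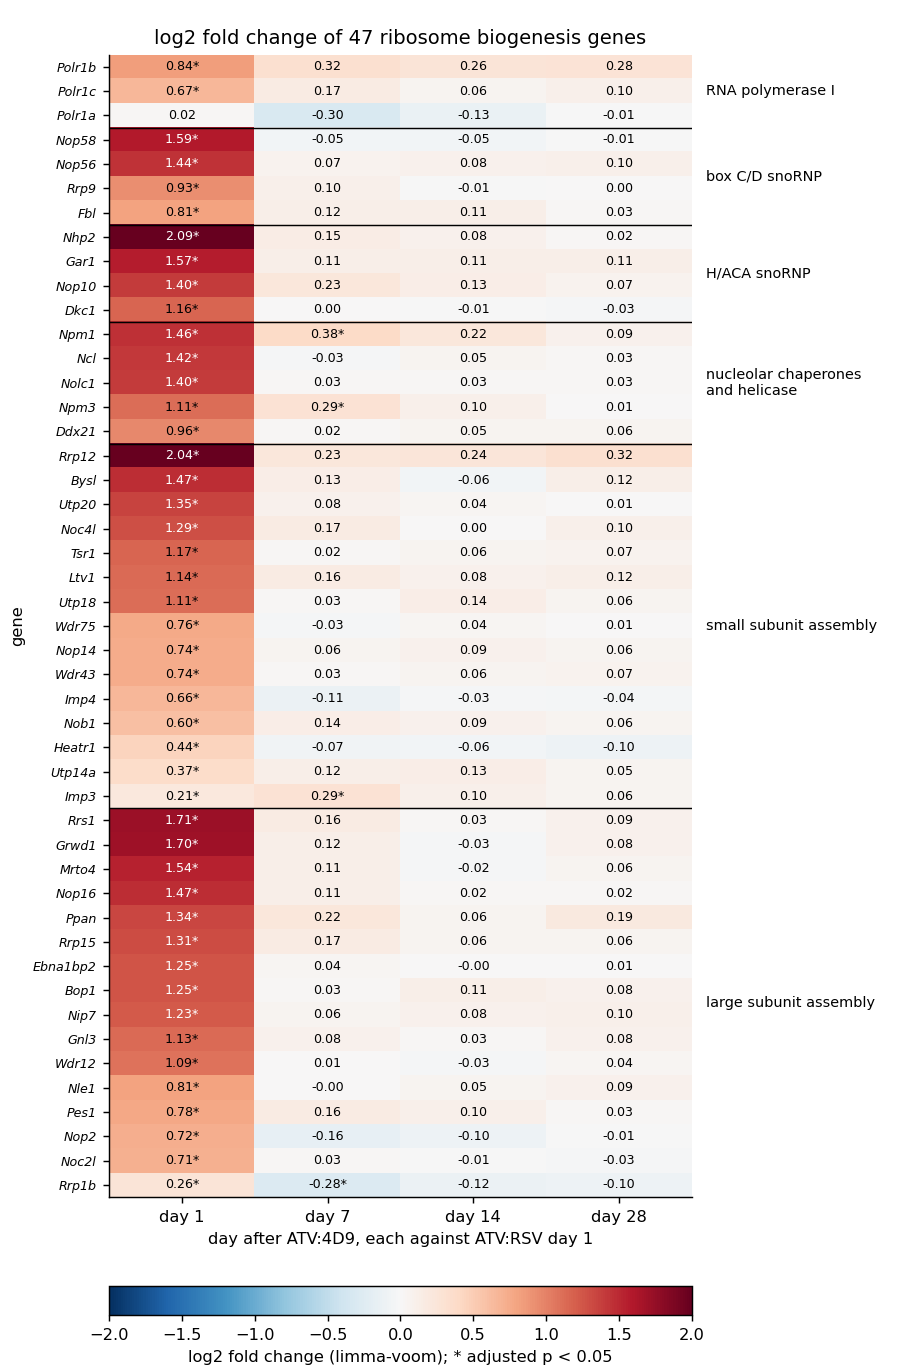
Log2 fold change of each of the 47 genes (rows, grouped by role and ordered by day 1) against ATV:RSV day 1 for the 4 days of ATV:4D9 (columns); colour and number give the fold change and a star marks an adjusted p under 0.05. The day 1 column has 46 stars, day 7 has 4, and days 14 and 28 have none.

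The subunits of RNA polymerase I did not move alike. Polr1a, which encodes the largest subunit (chromosome 6, 71909053 to 71984935, mm10), was the gene of the 47 that was not called. It was at 20.4, 25.6 and 27.6 CPM in the ATV:RSV mice and at 22.8, 27.1 and 23.9 CPM in the day 1 ATV:4D9 mice. These values overlap, and the log2 fold change was 0.02 with a 95% interval from -0.24 to 0.28 (limma-voom, adjusted p = 0.899). Its sign turned under other settings, from -0.22 with scaling by library size alone to 0.11. Polr1b, the second-largest subunit, was at 3.72, 2.99 and 3.36 CPM with ATV:RSV and at 6.38, 6.45 and 5.11 CPM at day 1 of ATV:4D9, a rise of 0.84 ± 0.111 on the log2 scale (SE; adjusted p = 5.71e-06, limma-voom). Polr1c, a subunit that RNA polymerases I and III share, rose from 24.7, 23.4 and 23.6 CPM to 37, 39.2 and 37.9 CPM, by 0.67 ± 0.0504 (SE). For both of these genes every day 1 mouse lay above every control mouse.

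All 4 box C/D snoRNP genes rose. Fbl encodes fibrillarin, the methyltransferase of the particle, and went from 83.4, 87 and 82.8 CPM to 139, 152 and 152 CPM, a log2 fold change of 0.81 ± 0.0443 (SE). Nop56 and Nop58 encode the paired scaffold proteins on which the particle is built. Nop56 was at 59, 58.6 and 59.8 CPM in the control mice and at 151, 169 and 164 CPM at day 1, which is a change of 1.44 ± 0.058 (SE). Nop58 was at 36.9, 33.3 and 33.9 CPM and then at 98.1, 112 and 103 CPM, and with 1.59 ± 0.0735 (SE) it had the fifth-largest change of the 47 genes. The scaffold genes thus had larger estimates than the enzyme, a difference that was not tested. Rrp9, which binds the U3 snoRNA, rose by 0.93 ± 0.0766 (SE).

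Among the H/ACA snoRNP genes the median log2 fold change was 1.49, the highest of the 6 roles. Nhp2, a small RNA-binding core protein (chromosome 11, 51619735 to 51623714, mm10), had the largest change of all 47 genes. It was at 33.2, 37.1 and 38.5 CPM with ATV:RSV and at 143, 160 and 158 CPM at day 1 of ATV:4D9. The groups were far apart, with a log2 fold change of 2.09 ± 0.0728 (SE), or 4.25-fold (limma-voom adjusted p = 1.37e-12), and 2.09, 2.10 and 2.02 within the 3 batches. Gar1 rose from 21.2, 21.8 and 22.5 CPM to 59.9, 69.5 and 66 CPM, and Nop10 from 66.8, 56 and 59.1 CPM to 159, 159 and 163 CPM. Dkc1, the gene of the pseudouridine synthase dyskerin, had the smallest change of the 4, from 25.5, 23.9 and 25.2 CPM to 51.7, 59.5 and 55.7 CPM (1.16 ± 0.057, SE). The same 4 proteins are also part of telomerase.

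The 5 nucleolar chaperones and helicases together had 2.58 ± 0.121 UMIs per cell with ATV:RSV and 5.55 ± 0.399 at day 1 of ATV:4D9 (SD, n = 3 mice), counted in cells thinned at random to 3385 UMIs. Npm1 encodes nucleophosmin and was at 348, 367 and 370 CPM in control mice and at 934, 1044 and 1010 CPM at day 1, which is 1.46 ± 0.0501 higher on the log2 scale (SE; adjusted p = 1.11e-12, limma-voom). Ncl encodes nucleolin, which binds the ribosomal RNA precursor, and rose from 243, 274 and 243 CPM to 631, 744 and 660 CPM, by 1.42 ± 0.0729 (SE). For Npm3, a relative of Npm1, the control mice were at 27.4, 25.9 and 27.2 CPM and the day 1 mice at 56.4, 57.9 and 59.5 CPM. Nolc1, a snoRNP chaperone, rose by 1.40 ± 0.0669 (SE) and the helicase gene Ddx21 by 0.96 ± 0.0483 (SE). Npm1, Npm3 and Mrto4 have processed copies in the mouse genome, so some of their reads may have been split or dropped in counting.

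The 15 small subunit factors rose in every case but spread widely, from 0.21 for Imp3 to 2.04 for Rrp12, with a median log2 fold change of 0.76. Rrp12, an export and maturation factor, had few UMIs. It was at 2, 2.17 and 1.81 CPM in the control mice and at 8.58, 8.71 and 7.21 CPM at day 1 (4.10-fold), and the mouse with fewest UMIs still had 70. Bysl (1.47), Utp20 (1.35) and Noc4l (1.29) followed. The smallest changes of the 15 were those of Imp3, Utp14a and Heatr1. Imp3, a protein of the U3 particle, was at 65.4, 67 and 69.1 CPM and then at 75.6, 79.8 and 78.1 CPM, a change of 0.21 ± 0.049 (SE; limma-voom adjusted p = 0.00111) that was -0.03 with scaling by library size alone. Utp14a moved from 38.4, 39.1 and 38.3 CPM to 48.6, 50.4 and 51 CPM, and Heatr1 from 16.1, 16.6 and 16.4 CPM to 23.2, 21.8 and 21.5 CPM. In all 3 of them the groups did not overlap.

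Of the 16 large subunit factors all rose, with a median of 1.24. Rrs1, which helps bring the 5S RNA particle into the precursor, had the largest estimate, from 12.8, 11.5 and 13.1 CPM to 35.5, 41.8 and 45.7 CPM (1.71 ± 0.114, SE). Grwd1 followed with 6.56, 6.2 and 7.78 CPM in control and 23.1, 22.4 and 21.1 CPM in day 1 mice (1.70 ± 0.0995, SE). Pes1, Bop1 and Wdr12 encode the 3 proteins of the PeBoW complex, which is needed to process the large subunit precursor. Bop1 was at 11.8, 10.8 and 10.6 CPM and then at 26.4, 26.5 and 26.1 CPM, and its change of 1.25 was the largest of the complex. Wdr12 went from 22.5, 23.4 and 22 CPM to 46.8, 53.9 and 44.4 CPM (1.09), and Pes1 from 25.2, 26.1 and 25.6 CPM to 44.4, 46.3 and 41.1 CPM (0.78). Rrp1b had the smallest change of this role, from 27.3, 28.5 and 25.5 CPM to 29.7, 34.4 and 33.5 CPM (0.26 ± 0.0651, SE; limma-voom adjusted p = 0.0022). With scaling by library size alone it was 0.02 and not called.

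**Figure D2:**
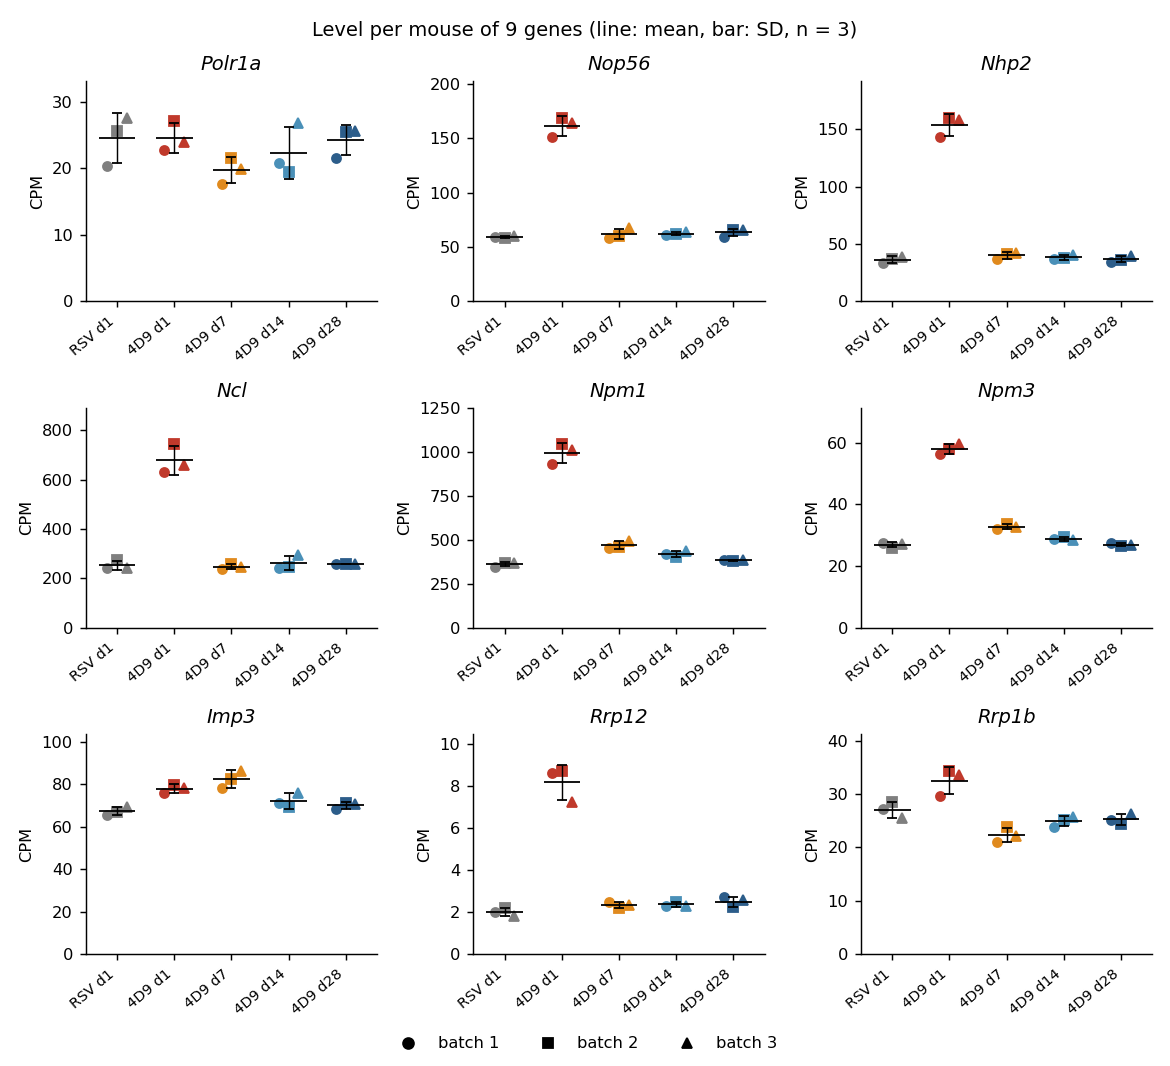
Level in CPM (y axis, from 0) of 9 of the genes in each mouse, by group (x axis) and batch (symbol); the line is the mean and the bar the SD of 3 mice. Nop56, Nhp2, Ncl, Npm1, Npm3 and Rrp12 stand apart at day 1, Polr1a does not, and Imp3 overlaps between day 7 (78.1 to 86.3 CPM) and day 1 (75.6 to 79.8 CPM).

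Cells with a detected UMI of Mki67 or Top2a, cells with 3 or more markers of other types and cells over 5% mitochondrial UMIs were left out in turn. In a further fit, cells were thinned to the same depth. Cycling cells without a detected UMI of these genes stayed in. The part in the result of cycling, depth or the shifted summed levels of microglia, monocyte and other marker lists was not tested. After cells with Mki67 or Top2a UMIs were left out, 46 genes were again called higher, with a median log2 fold change of 1.15. Without the cells that had 3 or more markers of another cell type, the count was 46 and the median 1.14, and without the cells over 5% mitochondrial UMIs, 46 and 1.14. With every cell thinned to 3385 UMIs at random, which left out 10204 shallower cells, the count was 46 and the median 1.06. Scaling by library size alone moved the median of all genes from -0.05 to -0.29 and that of the 47 genes to 0.90, with 44 called higher. The split of all calls moved with it, from 4942 higher and 4930 lower to 3690 higher and 6959 lower.

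Other genes of the same pathway, 123 of them in 4 lists, were looked at in the same fit, and 122 were tested. At day 1 of ATV:4D9, 93 were called higher and 9 lower, with a median log2 fold change of 0.53. Of all 14260 genes tested, 34.7% were called higher and 34.6% lower. The 4 lists, too, were chosen with earlier results of these data known, so counts over them are a description. Of 38 further small subunit factors, 33 rose and 1 fell. Pno1 (1.54), a late assembly factor, and Wdr46 (1.26) had the highest values, Utp25 fell by 0.28, and Riok1 (-0.11; limma-voom adjusted p = 0.146) was not called. Of 52 further large subunit factors, 37 rose and 4 fell. The methyltransferase gene Ftsj3 (1.65) and Lyar (1.47) were highest. Nop53 fell by 0.43 and Sbds, which acts in the last step of cytoplasmic maturation, by 0.40. Of 20 tested genes of the nuclear exosome, the RNase that trims the precursors, and of snoRNP assembly, 18 rose and 1 fell. Dis3 (1.35) and Exosc2 (1.27) were highest, Naf1 fell by 0.20, and Exosc10 (0.07; limma-voom adjusted p = 0.306) was not called.

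Of 12 remaining genes of the RNA polymerase I machinery, 5 rose, 3 fell and 4 were not called, with a median of 0.13. With 34.7% of all genes called higher and 34.6% lower, counts over 12 genes are near the background. Polr1e, which rose from 3.95 ± 0.0727 to 9.34 ± 0.154 CPM (SD, n = 3), and Polr1d, from 141 ± 2.18 to 251 ± 13.1 CPM, had the highest log2 fold changes, 1.24 and 0.83. Taf1c, a subunit of the promoter selectivity factor, fell by 0.41 and the termination factor gene Ttf1 by 0.27.

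**Figure D3:**
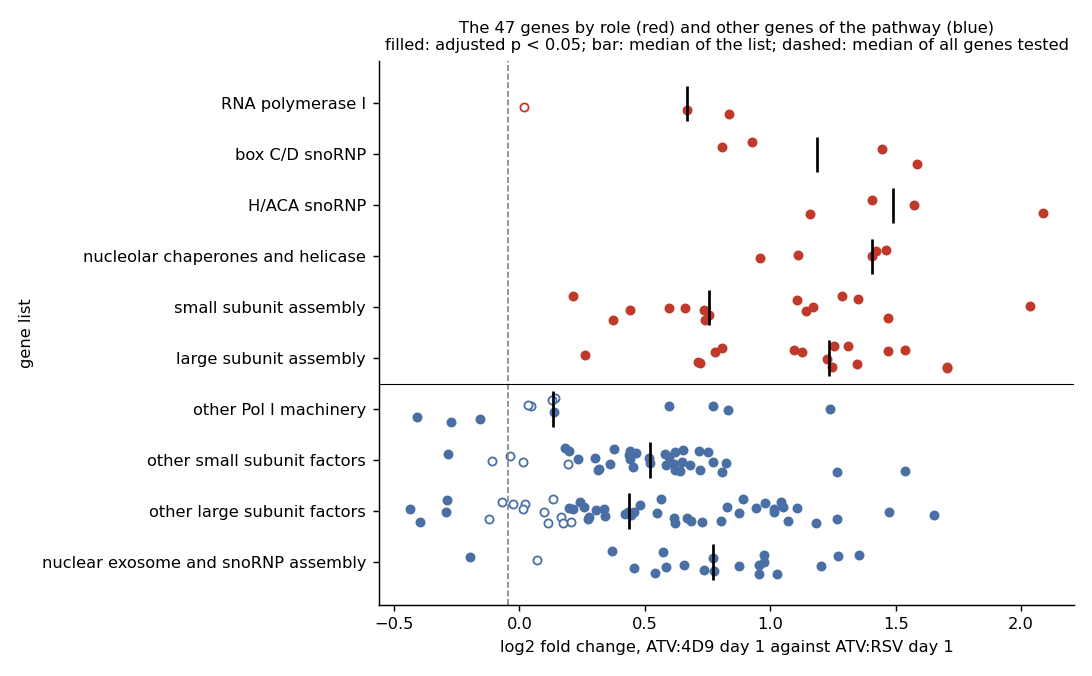
Log2 fold change at day 1 of ATV:4D9 against ATV:RSV (x axis) of each of the 47 genes by role (red) and of 122 other genes of the pathway by list (blue); filled points have an adjusted p under 0.05, bars are list medians and the dashed line is the median of all genes tested (-0.05). The medians run from 0.67 to 1.49 in the 6 roles and from 0.13 to 0.77 in the 4 other lists.

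To see whether a few cells or most cells carried the signal, UMIs of the 47 genes were counted per cell after thinning to 3385 UMIs. Thinning left out the cells with fewer UMIs, and not evenly. They were 8.69%, 17.8% and 11.8% of the cells of the ATV:RSV mice and 3.93%, 4.77% and 5.79% of those of the day 1 ATV:4D9 mice. In the cells kept, the mean per cell was 6.51, 6.65 and 6.53 in the ATV:RSV mice and 11.9, 13.2 and 12.3 in the day 1 ATV:4D9 mice. The whole distribution lay higher, as the 10th percentile was 3 in each control mouse and 6 or 7 at day 1, and the median was 6 and 11 to 13. A count above 10, the 90th percentile of control cells, was found in 8% to 9.44% of control cells and in 57.5%, 66% and 59.7% of day 1 cells. At days 7, 14 and 28 this share was 7.5% to 12.3%. These are descriptions of cells, and the 3 mice of a group are the replicates.

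Cells with and without a cycling UMI were close at day 1. Thinned cells with a UMI of Mki67 or Top2a had means of 12.5, 13.3 and 12.4 UMIs of the 47 genes in the 3 mice, and cells without one had 11.8, 13.2 and 12.3. In the ATV:RSV mice, where only 16 to 36 thinned cells per mouse had such a UMI, the means were 7.03, 7.31 and 6.65 with and 6.5, 6.64 and 6.53 without. The UMIs of Mki67 and Top2a were counted after thinning, so cells with such a UMI at full depth are among the cells without one. At full depth 19.6%, 27.4% and 24.6% of the cells of the day 1 mice had such a UMI. After thinning, 814 of 6838, 1256 of 6993 and 945 of 5651 cells did. This mixing can hide a difference between the 2 kinds of cells. A cell without a UMI of these genes may also still be cycling.

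**Figure D4:**
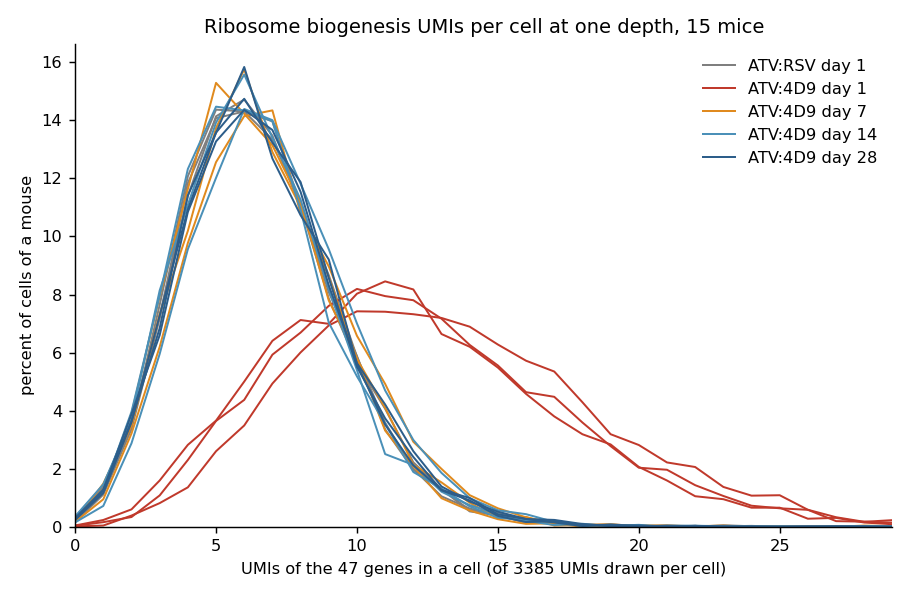
Distribution over cells of the number of UMIs from the 47 genes (x axis) among 3385 UMIs drawn per cell, as the percent of the cells of a mouse (y axis), 1 line per mouse. The 3 day 1 ATV:4D9 mice have medians of 11 to 13 and the 12 other mice medians of 6 or 7.

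The authors sorted the cells into clusters 0, 1 and 2. Since clusters are made from the expression of these same cells, levels in them are given as descriptions. Cluster 2 held 87.3% to 93.5% of the cells of the day 1 ATV:4D9 mice and 1.12% to 3.23% in the others. In cluster 2 the summed level of the 47 genes was 3774 to 4087 CPM at day 1 of ATV:4D9 and 2402 to 3109 CPM in the 76 to 165 such cells per ATV:RSV mouse. The day 1 cells outside it were fewer and lay lower than those of cluster 2. In cluster 0 the 211 to 383 day 1 cells per mouse stood at 1971 to 2262 CPM against 1915 to 1972 CPM with ATV:RSV, and in cluster 1 the 180 to 555 cells stood at 2082 to 2575 CPM against 1858 to 1861 CPM, all 3 mice above all controls. Of the 47 genes, 34 had a higher mean at day 1 than with ATV:RSV in cluster 0, 42 in cluster 1 and 44 in cluster 2, against 42.5%, 47.4% and 42.4% of all genes tested. Every day 1 mouse was above every control mouse in 10, 16 and 31 of the 47 genes, against 9.9%, 12.2% and 20.9% of all genes, and below every control mouse in 3, 1 and 0, against 18.8%, 15.4% and 22.5%. In the mouse with fewest, the 47 genes together had 2052 UMIs in cluster 0, 1220 in cluster 1 and 2126 in cluster 2. Separation of single genes depends on such counts, so these numbers of genes cannot be compared between clusters. Nhp2 shows the same order, with 135 to 149 CPM in day 1 cells of cluster 2 and 42.3 to 55.1 CPM in cluster 0. The ATV:RSV cells of these clusters had 61.8 to 74.6 CPM and 33.5 to 40 CPM. Cluster levels use unadjusted UMI totals and cannot be set beside the TMM-adjusted CPM of whole mice.

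**Figure D5:**
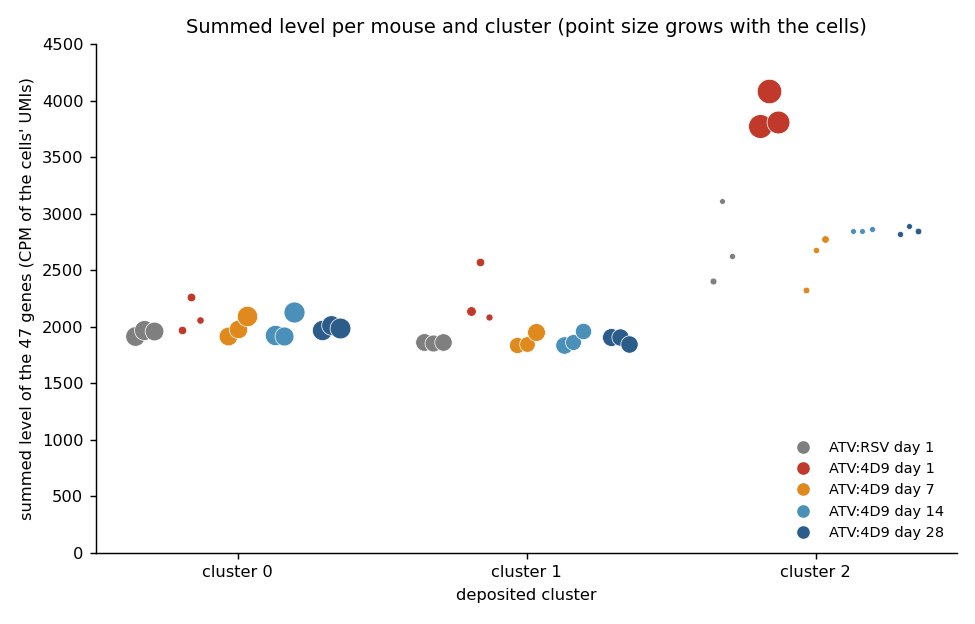
Summed level of the 47 genes in CPM of the UMIs of the cells concerned (y axis, from 0) for each mouse in the deposited clusters 0, 1 and 2 (x axis), coloured by group, with larger points for more cells. Day 1 cells of ATV:4D9 in cluster 2 reach 3774 to 4087 CPM, above every other point.

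By day 7 the genes had come down. Compared with day 1 of ATV:4D9, 46 of 47 were lower and none was higher (limma-voom), with a median log2 fold change of -1.08, where 33.9% of all genes were called lower and 33% higher. Nhp2 fell by 1.94 and Rrp12 by 1.81. Imp3 was the exception, with 0.08 ± 0.0489 (SE; limma-voom adjusted p = 0.157), and with scaling by library size alone it was called higher at 0.23. The fall of Polr1a, 0.32 on the log2 scale (limma-voom adjusted p = 0.0385), was lost without day 1 replicate 2 or 3, without day 7 replicate 1 or 3 and under 3 other settings, with adjusted p from 0.00678 to 0.288. The estimate was -0.34 without day 1 replicate 3 or day 7 replicate 3, -0.31 without cells over 5% mitochondrial UMIs, -0.25 without day 1 replicate 2 and -0.26 without day 7 replicate 1, and it shrank to -0.17 in thinned cells and -0.18 with library size alone.

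Against ATV:RSV, 3 genes were still higher at day 7 and 1 was lower, where 2.99% of all genes were called higher and 0.996% lower. The median over the 47 genes was 0.08. Npm1 was at 455, 459 and 495 CPM, above the 348 to 370 CPM of the control mice and below the 934 to 1044 CPM of day 1, which gives 0.38 ± 0.0507 on the log2 scale (SE; adjusted p = 0.000236, limma-voom). Npm3 was at 32.1, 33.5 and 32.8 CPM (0.29 ± 0.0464, SE; limma-voom adjusted p = 0.00124). Imp3 was at 78.1, 82.5 and 86.3 CPM (0.29 ± 0.0495, SE; limma-voom adjusted p = 0.00201), and within the batches it was higher by 0.26, 0.30 and 0.32. For these 3 genes every day 7 mouse lay above every control mouse, as it did for 10 of the 47 genes and 1574 of all 14260 genes tested. Each of the 3 stayed called under all 16 alternatives. Nop10 (0.23; limma-voom adjusted p = 0.0763) was not called in this fit. It was called higher by DESeq2, with the batch as a replicate block and without ATV:RSV replicate 1. Among the other pathway genes Nsa2 (0.42), Krr1 (0.31) and Polr1d (0.21) were called higher at day 7 and none was lower.

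Rrp1b was the gene that was higher at day 1 and lower at day 7. Its day 7 values of 21.1, 23.8 and 22.2 CPM lay below the 25.5 to 28.5 CPM of the control mice, with an estimate of -0.28 ± 0.0708 on the log2 scale (SE; adjusted p = 0.0361, limma-voom). That call was lost without ATV:RSV replicate 1 (-0.27) or 2 (-0.24) and without day 7 replicate 1 (-0.24) or 3 (-0.28). It was also lost without a filter on low counts (-0.29) and without cells over 5% mitochondrial UMIs (-0.26). Over the 16 alternatives the adjusted p ran from 0.0057 to 0.152. Polr1a was at 17.7, 21.6 and 19.9 CPM, a log2 fold change of -0.30 that was not called (limma-voom adjusted p = 0.267).

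At day 14 and day 28 no gene of the 47 was called against ATV:RSV, where 0.4% and 0% of all genes were called in either direction. At day 14, 4 of the 47 had an unadjusted limma-voom p under 0.05, edgeR's quasi-likelihood test called 0 and DESeq2 called 1, which was Npm1. Of all 14260 genes, 770 had such a p, edgeR called 59 and DESeq2 132. Npm1 was at 421, 403 and 437 CPM, above every control mouse, with an estimate of 0.22 ± 0.0506 on the log2 scale (SE; adjusted p = 0.0983, limma-voom), and with the batch as a replicate block it was called (adjusted p = 0.0267). At day 28, 2 of the 47 had an unadjusted limma-voom p under 0.05 and edgeR and DESeq2 called 0, while of all genes 571 had such a p, edgeR called 0 and DESeq2 14. Npm1 was then at 383, 380 and 387 CPM, a difference of 0.09 from the controls. Over the 47 genes the 95% intervals of the log2 fold change ran from -0.40 to 0.55 at day 14 and from -0.29 to 0.62 at day 28.

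Between neighbouring later days the main limma-voom fit called none of the 47 genes either. From day 7 to day 14, 0.912% of all genes were called in either direction and none of the 47 was, with 4 at an unadjusted limma-voom p under 0.05. DESeq2 called Imp3 and Npm3 lower in that step, edgeR called none, and the fit with the replicate block called Imp3 (-0.19; limma-voom adjusted p = 0.0253). Of all genes, 1128 had such an unadjusted p in that step, edgeR called 142 and DESeq2 241. From day 14 to day 28, 0% of all genes and none of the 47 were called, with 1 of the 47 at an unadjusted limma-voom p under 0.05 and none by edgeR or DESeq2. Of all genes, 338 had such a p in that step, edgeR called 0 and DESeq2 70.

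Some genes kept an order among the batches. The batch 3 mouse was the highest of its group in all 5 groups for Ltv1, Rrs1 and Mrto4, and the batch 1 mouse was the lowest in all 5 for Nhp2, Tsr1, Gnl3 and Nle1. For Ebna1bp2 the batch 2 mouse was the lowest in all 5. Over all genes tested, 3.5% had batch 3 highest, 2.93% had batch 1 lowest and 0.386% had batch 2 lowest throughout. In Ltv1 the batch 3 mice were at 18, 38.4, 20.7, 20 and 19.1 CPM in the order of the groups, and the batch 1 mice at 14.3, 32.7, 15.1, 15.8 and 15.5 CPM. The day 1 difference in this gene was larger than that between batches.

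Spearman's rho was computed between the span of the gene and the log2 fold change against ATV:RSV. Over the 47 genes it was -0.29 at day 1, -0.47 at day 7, -0.14 at day 14 and -0.29 at day 28. Over the 12439 genes tested that have a span and a protein-coding transcript it was -0.19, -0.09, -0.07 and -0.05. From day 7 to day 14 it was 0.56 over the 47 genes, against 0.07, and from day 14 to day 28 -0.04, against 0.04. The values for day 7 and for the step from day 7 to day 14 share the day 7 mice with opposite sign. These values are across genes that share the same mice, and genes are not independent replicates.

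Some of the 47 genes hold further RNA genes. In the GENCODE annotation of mm10, 8 of them (17%) have small nucleolar RNA (snoRNA) genes inside on the same strand, 23 in all, against 1.71% of the 12440 protein-coding genes tested. Nop56 holds 5, Nop58 4, and Ncl, Wdr43 and Gnl3 hold 3 each, with the rest in Tsr1, Ppan and Dkc1. The median day 1 log2 fold change was 1.26 in these 8 (0.74 to 1.59) and 1.11 in the other 39. The libraries were primed on polyA tails, so the values refer to the host transcripts. In 14 of the 47 genes a protein-coding gene overlaps on the opposite strand. The overlaps run from 5 bases between Nop56 and Idh3b to 12804 bases between Pes1 and 4930556J24Rik, with 44 between Nhp2 and Rmnd5b.

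Because the genes moved together at day 1, their promoters were searched for the letters CACGTG, the E-box that MYC and related factors are known to bind and that reads the same on both strands. RefSeq promoter windows (GRCm38.p6, 250 bases before to 50 after the start) were matched for 42 of the 47 genes. Of these, 10 (23.8%) held the motif, against 11.6% of 10636 genes tested that have a window. The difference lay after the start, where 7 (16.7%) held it against 1.92%, while before the start 3 (7.14%) did against 9.83%. This split depends on the start used. In 39 of the 46 windows of these genes, bases 3 to 22 after the start were in a GENCODE transcript of the gene. The ETS core CCGGAAG, searched on both strands, was in 35.7% against 20%, the GC box GGGCGG in 69% against 66.5%, and TATAAA in 7.14% against 8.82%. After the start alone, the ETS core was in 14.3% against 5.38%, the GC box in 7.14% against 18%, and TATAAA in 0% against 0.818%. A match is a description of the letters and not of binding.

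The stretch around the motif in each of the 10 genes is shown to let the flanks be compared, 5′ to 3′ on the strand of the gene and with the motif in capitals. The first 3 lie before the start and the others after it.
Imp4, chr1:34439696-34439725, plus strand: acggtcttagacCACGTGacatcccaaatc
Nop2, chr6:125131811-125131840, plus strand: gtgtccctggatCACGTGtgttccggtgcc
Utp18, chr11:93885769-93885798, minus strand: gcgagcgccggtCACGTGgcttgcggcggc
Pes1, chr11:3963965-3963994, plus strand: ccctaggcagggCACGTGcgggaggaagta
Wdr43, chr17:71616220-71616249, plus strand: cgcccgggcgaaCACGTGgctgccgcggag
Nle1, chr11:82908355-82908384, minus strand: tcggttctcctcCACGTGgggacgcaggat
Tsr1, chr11:74898092-74898121, plus strand: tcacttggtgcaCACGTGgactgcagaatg
Ltv1, chr10:13193092-13193121, minus strand: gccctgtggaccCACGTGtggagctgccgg
Grwd1, chr7:45830740-45830767, minus strand: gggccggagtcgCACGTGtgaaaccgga
Utp20, chr10:88826765-88826789, minus strand: cggcactaactaCACGTGaggaaaa

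The median day 1 log2 fold change was 0.96 in these 10 genes (0.66 for Imp4 to 1.70 for Grwd1) and 1.14 in the 32 genes whose window does not hold the motif, a group that includes Nhp2 and Polr1a. The genes with the motif thus lay within the range of those without it. The 5 genes with no matched window are in neither group. They are Rrp12 (2.04), Rrs1 (1.71), Npm1 (1.46), Bop1 (1.25) and Fbl (0.81).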

How the data were processed

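Single-cell 3′ libraries of 15 mice were grouped by antibody and day as the labels give them. The deposited matrix holds raw UMI counts for each gene in each cell. A deposited cell table gives each cell's UMI count, its mitochondrial percent, its cluster and its mouse. The authors mapped reads to mm10 with Cell Ranger (4.0.0 per the submitters' processing notes, while the study's methods name another version) and filtered and clustered the cells. Whether doublets were removed is not given in the sources used here. Matrix sums equalled the deposited UMI counts in all 102043 cells, and 1283 of 100747 distinct cell barcodes (1.27%) occur in 2 or more mice.

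Counts were summed per mouse (32341960 to 70307384 UMIs), filtered with filterByExpr (minimum count 10, total 15), scaled by TMM and tested by limma-voom (R 4.3.3 with limma 3.58.1 and edgeR 4.0.16), the pipeline the study's methods name for bulk and pseudobulk data, in a fit of group means over 15 mice, with Benjamini-Hochberg adjustment over 14260 genes and a threshold of 0.05. All 7 comparisons use this fit. It was tested on simulated counts. Alternatives were library size alone, DESeq2 size factors, edgeR's quasi-likelihood test, DESeq2 1.42.0, no filter, the batch as replicate block, 4 subsets or thinnings of cells, and leaving out each mouse. No 2 libraries of a group were copies (chi-square per gene 10.59 or more).

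The members and the gene lists were chosen with earlier results of these data known. Values per mouse are printed for the 5 highest and 5 lowest day 1 fold changes, 15 core genes and members called later. Of each further list, the genes with the 2 highest and 2 lowest day 1 fold changes are named. Each batch holds all 5 conditions per the labels, so the batch number pairs mice. The mean correlation of deviations from the group means was 0.104 within a batch (30 pairs, -0.216 to 0.367). Between batches it was -0.0521 (60 pairs, -0.474 to 0.367). Since the deviations of a group cancel in each gene, the mean between batches is tied to that within and is no separate check. Positions are 1-based, from GENCODE M21 (mm10). Within-batch differences add 0.5 CPM, and clusters needed 50 cells per mouse. A further control animal that the labels mention was not analysed here.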

Additional observations from a re-analysis of the deposited data

Results flagged for a closer look

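The level after ATV:4D9 differed between day 1 and day 7 in 46 of the 47 genes, by the limma-voom contrast of the 2 days given above. All 46 were lower at day 7, where 33.9% of all genes tested were called lower and 33% higher. The ATV:RSV mice cancel in this contrast, and no control was taken at day 7. The 46 include Polr1a, whose call was lost under several alternatives as given in the report. Rrp1b was called higher at day 1 and lower at day 7, and its day 7 value differed from day 1 by -0.54 on the log2 scale. As given above, its day 7 call was lost without any 1 of 4 mice (ATV:RSV replicate 1 or 2, day 7 replicate 1 or 3). No group has 4 or more mice, so single mice far from the rest of their group were not sought.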

How the results depend on the processing

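The count of 46 higher genes at day 1 was 44 with library size alone and 46 under each other alternative, also without any 1 mouse (46 to 46). With library size alone Imp3 reversed to -0.03 and Rrp1b (0.02) lost its call. Polr1a, which was not called, reversed to -0.22 with library size alone, -0.08 in thinned cells, -0.11 when ATV:RSV replicate 1 and -0.05 when day 1 replicate 2 was left out (-0.11 to 0.11 over the mice). At day 7 against ATV:RSV, the count of lower genes (1) was 3 with library size alone (Imp4, Nop2 and Rrp1b), 0 without the filter on low counts and 0 without cells over 5% mitochondrial UMIs, and 0 to 1 when a mouse was left out, and the count of higher genes 3 to 4. From day 1 to day 7, 45 to 46 genes were lower without 1 mouse, 44 with library size alone, which also called 1 higher, and 44 in thinned cells. Beside Polr1a, Utp14a (-0.11 with library size alone) and Polr1b (-0.37 in thinned cells) lost their calls there. At day 14 against ATV:RSV, DESeq2 called 1 higher and the replicate block 1. From day 7 to day 14, DESeq2 called 2 lower and the replicate block 1. With the replicate block the other counts stayed at 46 higher at day 1 and, at day 7, 4 higher, Nop10 (0.23; limma-voom adjusted p = 0.0141) being added, and 1 lower. Every alternative listed in the methods gave a value. With 3 mice a group, a control sampled at day 1 only and no probe of protein or ribosomal RNA, the values are limited to messenger RNA per mouse at these days. In simulated counts of the day 1 comparison (14026 genes, 50 changed at each fold), 4% of genes changed 1.25-fold and 96% of genes changed 2-fold were called. The simulation set the same spread between mice for all genes and changed few genes, so these rates do not carry over to the data. In the data, Imp3 was called at 1.16-fold and Rrp1b at 1.2-fold at day 1.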
